A study of Mus musculus with 12 samples.

Results

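The 38 genes described here belong to the unfolded protein response of the endoplasmic reticulum (ER) and to the heat shock response of the cytosol. They were chosen by name, though with earlier results of these data known, from the 18194 genes measured with probe sets of 1 gene. All 38 were measured, by 88 probe sets. They fall into 5 arms, which are reported apart: 14 ER chaperones and folding factors, 7 genes of ER-associated degradation and translocation, 4 stress sensors and their direct factors, 7 genes of the integrated stress response, and 6 cytosolic heat shock genes. The tissue was the abdominal fat pad of female C57BL/6 mice, each array held the RNA of a pool of fat pads, and 12 pools were measured. Of these, 3 were wild type and 3 were p47phox null on casein, and 3 of each genotype were on the high fat diet. p47phox, encoded by Ncf1, is a cytosolic subunit of the NADPH oxidase that makes superoxide. Both diets began at postnatal day 28 and ran for 13 weeks in every group. Pool sizes are not given, nor is how the null allele was made. Since each array held 1 pool, p-values measure the spread between pools.

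As background, the ER folds secreted and membrane proteins, and unfolded protein there is sensed by 3 transmembrane proteins, IRE1 (Ern1), PERK (Eif2ak3) and ATF6. IRE1 splices the mRNA of Xbp1, and the spliced factor, together with cleaved ATF6, induces chaperones and the machinery that sends misfolded protein to the proteasome, while PERK slows translation and favours ATF4 and its targets. The heat shock response is a separate system, driven by HSF1, that induces cytosolic chaperones. In fat, the ER response is known for rising in obesity and for being strong in cells that secrete much protein.

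Values are log2 differences from the median of the same probe set over the 12 pools, since the deposited table is centred in that way. A value of 0 is therefore the middle of the pools and not absence, and no gene's level can be set against another's. Whether adipocytes or any other cell are present cannot be read from centred values, only whether their markers differ between pools. In a tissue sample, fewer cells of a type and less RNA per cell cannot be told apart. For Ncf1, 2 of 3 probe sets put every null pool below every wild type pool, and the genotypes overlapped for the third. Some pools held much more signal of other tissues: the median of a marker list for skeletal muscle or liver exceeded 3 on the log2 scale in wild type casein pool 3, wild type high fat pool 2 and null high fat pool 1. Null high fat pool 3 held the highest or the lowest value of 19 of the 38 members, against 32.9% of all genes.

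The genotype comparison under high fat feeding asked how the fat pad differs without p47phox under obesogenic feeding, and it passed the test in 3 of the 38 members. Derl3 and Calr were higher in null pools and Edem1 was lower (limma, p-values adjusted by Benjamini and Hochberg over all genes, threshold 0.05). That is 7.89% of the members, beside 5.92% of all genes, of which 3.21% were higher and 2.71% lower. Averaged over both diets, 5 of 38 members passed and all 5 were higher in null pools, namely Derl3, Calr, Creld2, Dnajb9 and Pdia4. The share was 13.2%, beside 7.52% of all genes, with 4.09% higher and 3.42% lower. On casein alone, 0 of 38 members passed, as did 0% of all genes, and 7 members had an unadjusted limma p under 0.05 beside 8.12% of all genes. Under high fat feeding that unadjusted count was 21 of 38 beside 24.9% of all genes, and averaged over the diets it was 22 of 38 beside 25.6%. The median difference over the 38 members was 0.12 on casein and 0.07 under high fat feeding, beside -0.01 and -0.03 over all genes.

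**Figure D1:**
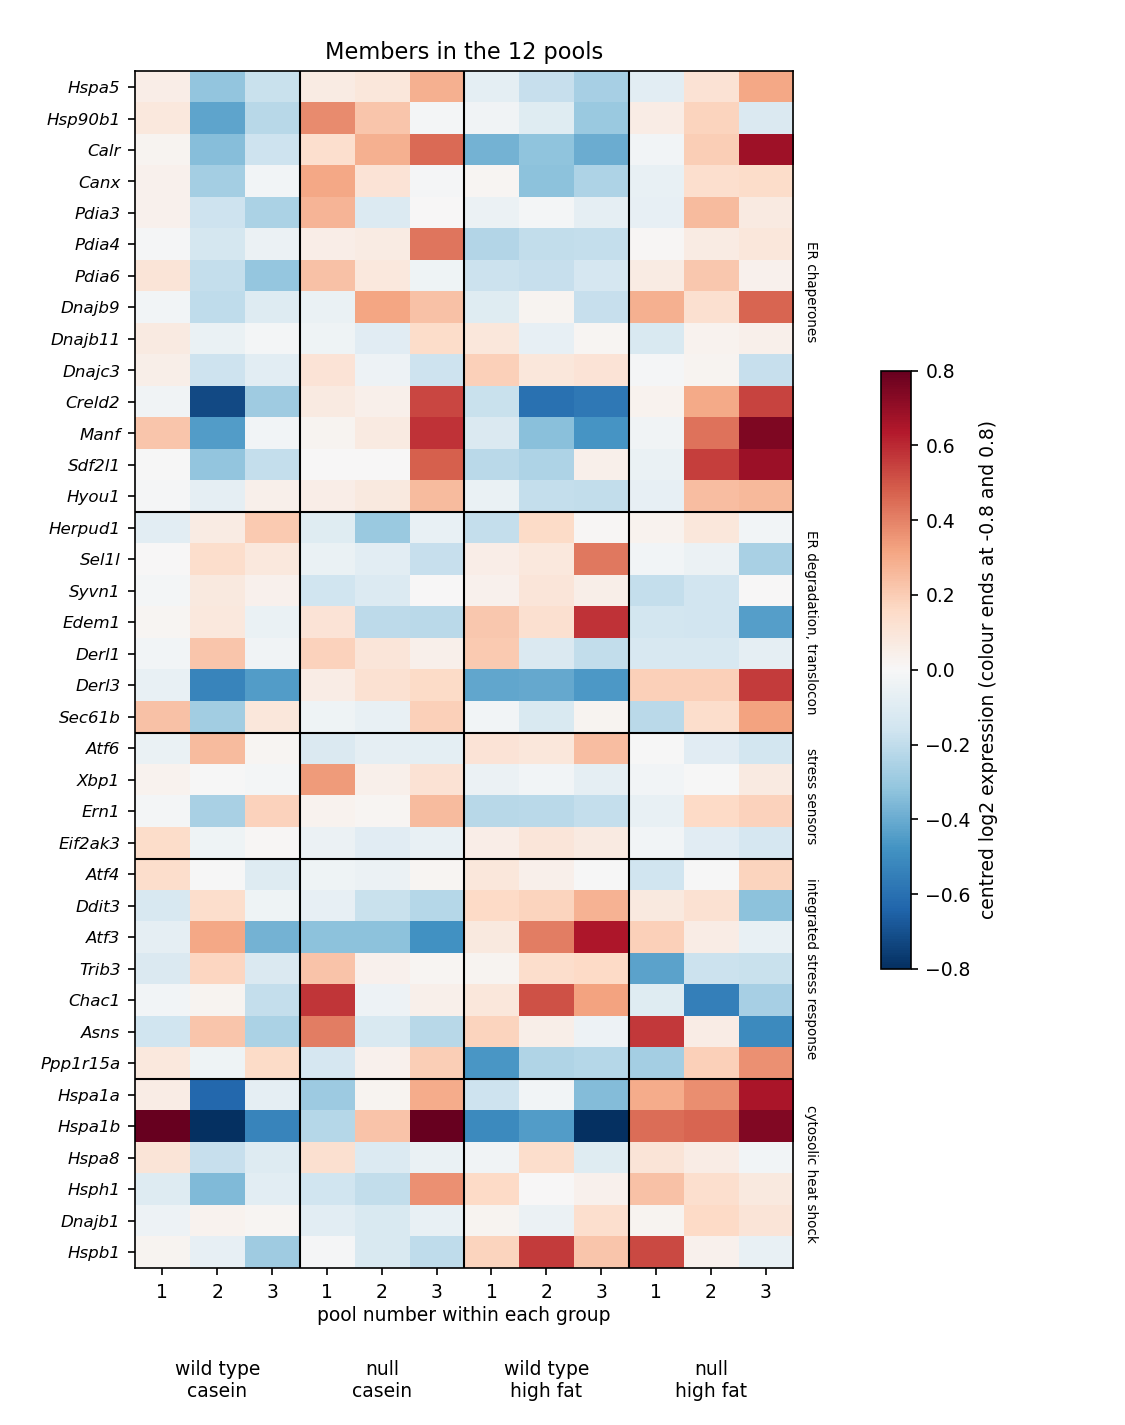
Heat map of the 38 members (rows, by arm) in the 12 pools (columns, by group), coloured by the log2 value relative to the gene's median over the pools, with the scale ending where the colour bar says. Red in the null columns is concentrated in rows of the ER chaperones, Derl3, Hspa1a and Hspa1b, while rows of the other arms mix both colours.

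The ER chaperones had the highest median genotype difference of the 5 arms on both diets, above 0 in null pools. On casein, 14 of 14 differences were positive, from 0.00 for Dnajb11 to 0.56 for Creld2, with a median of 0.26. In the high fat groups 12 of 14 were positive, with a median of 0.28, and the exceptions were Dnajb11 at -0.03 and Dnajc3 at -0.19. Of all genes, 46.1% were positive on casein and 43.4% under high fat feeding. By the test, 0 of 14 passed on casein, where 6 had an unadjusted limma p under 0.05 beside 8.12% of all genes. Under high fat feeding 1 of 14 passed (7.14%), and 4 of 14 (28.6%) passed for the mean of both diets, all of them higher. The shares of all genes that passed were 5.92% and 7.52%. All 3 null pools lay above all 3 wild type pools for 6 of the 14 genes on casein, beside 5.4% of all genes. They did so for 6 of the 14 under high fat feeding as well, beside 14.9% of all genes.

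Calr encodes calreticulin, a calcium-binding lectin chaperone that holds newly made glycoproteins in the ER. Its wild type values were 0.02, -0.34 and -0.17 on casein and -0.38, -0.32 and -0.40 under high fat feeding. Null pools stood at 0.13, 0.28 and 0.46 on casein and at -0.02, 0.19 and 0.68 under high fat feeding. The genotypes did not overlap on either diet, and null high fat pool 3 was the highest of the 12. Calr was 0.65 ± 0.16 higher in null pools under high fat feeding (SE, n = 3 pools a group), which is 1.57-fold (limma adjusted p = 0.0463). The difference on casein was 0.45 ± 0.16 (limma adjusted p = 0.574), and the mean over both diets was 0.55 ± 0.12 (limma adjusted p = 0.0259). Its 3 probe sets gave 0.62, 0.64 and 0.68 under high fat feeding. Without probe sets that can bind several genes, the high fat difference was 0.62 (limma adjusted p = 0.0548).

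Creld2 encodes an ER-resident disulfide isomerase-like protein that is induced by ER stress. Wild type values were -0.03, -0.72 and -0.29 on casein and -0.18, -0.60 and -0.57 under high fat feeding. Null values were 0.07, 0.04 and 0.54 on casein and 0.03, 0.31 and 0.54 under high fat feeding. All 6 null pools were above all 6 wild type pools, a pattern that 1.27% of all genes showed. Averaged over the diets Creld2 was 0.65 ± 0.15 higher in null pools, 1.57-fold (limma adjusted p = 0.031), and under high fat feeding alone the difference was 0.74 ± 0.21 (limma adjusted p = 0.0611).

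Dnajb9 encodes ERdj4, an ER co-chaperone that is a direct target of spliced XBP1. Its single probe set gave, on casein, -0.02, -0.20 and -0.10 in wild type against -0.05, 0.32 and 0.24 in null pools, so that 1 null pool lay among the wild type values. Under high fat feeding the wild type pools were at -0.10, 0.02 and -0.19, and the null pools were all higher, at 0.28, 0.13 and 0.46. The mean of the differences on both diets was 0.33 ± 0.08, or 1.25-fold (limma adjusted p = 0.0403).

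Pdia4, a protein disulfide isomerase that forms disulfide bonds in the ER, stood in wild type pools at -0.01, -0.14 and -0.05 on casein and at -0.23, -0.20 and -0.19 under high fat feeding. Null pools gave 0.05, 0.07 and 0.43, and 0.01, 0.07 and 0.09. All 6 null pools were above all 6 wild type pools, and the mean difference was 0.26 ± 0.07, or 1.19-fold (limma adjusted p = 0.0467). The 2 probe sets did not move alike. In the high fat groups one was 0.64 ± 0.16 higher in null pools (limma adjusted p = 0.0446, over probe sets) and the other differed by -0.12 ± 0.13 (limma adjusted p = 0.651).

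Hspa5 encodes BiP, the ER's main HSP70 chaperone and the gene most often read as a gauge of this response. Its casein values were 0.06, -0.32 and -0.18 for wild type and 0.06, 0.09 and 0.28 for null, and the lowest null value was level with the highest wild type value to the second decimal. Wild type high fat pools gave -0.08, -0.18 and -0.26, and null high fat pools gave -0.09, 0.11 and 0.31, so that the groups overlapped. The mean genotype difference was 0.29 ± 0.09, 1.22-fold, and did not pass (limma adjusted p = 0.0675). Its 3 probe sets were all positive under high fat feeding, at 0.20, 0.27 and 0.38.

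Among the remaining chaperones no difference passed. Manf, a secreted ER stress protein, and Sdf2l1, a partner of BiP, had mean genotype differences of 0.50 ± 0.16 and 0.43 ± 0.14 (limma adjusted p = 0.0858 and 0.0813). Manf was at -0.12, -0.33 and -0.47 in wild type and at -0.03, 0.43 and 0.75 in null pools under high fat feeding, with no overlap. Hsp90b1 (GRP94), Pdia6, Canx (calnexin), Hyou1 and Pdia3 lay between 0.16 and 0.28 for the mean of both diets. Dnajc3, the co-chaperone p58IPK, was lower in all 3 null than in all 3 wild type pools under high fat feeding, at -0.19 ± 0.09 (limma adjusted p = 0.241), and its 5 probe sets ran from -0.51 to 0.08.

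**Figure D2:**
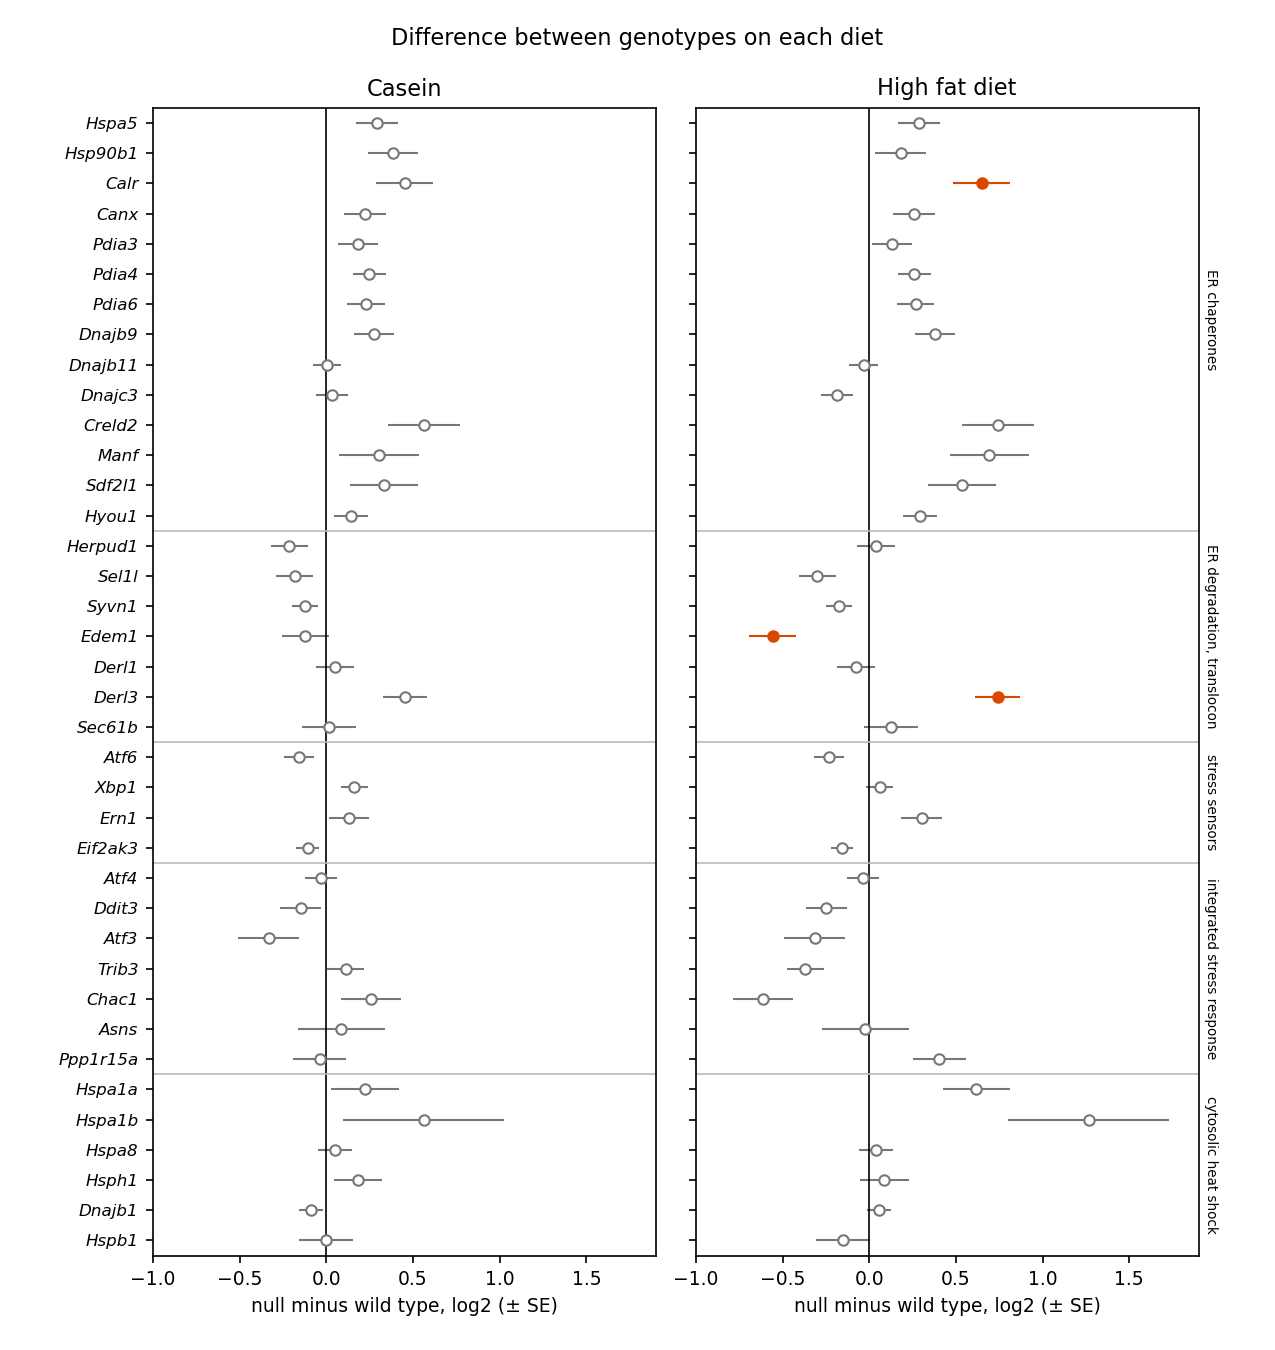
Null minus wild type difference (log2, x axis) of each of the 38 members (rows, by arm) on casein and under high fat feeding, with bars of 1 SE from the limma fit over 3 pools a group and filled points for those that passed the test. Points of the ER chaperones lie right of 0 on both diets apart from Dnajb11 and Dnajc3 under high fat feeding, and Derl3 and Edem1, of the same arm, lie on opposite sides of 0.

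The degradation arm held the call with the smallest adjusted p, Derl3 higher in null pools, and the one call in the other direction, Edem1. Over its 7 genes the median difference was -0.12 on casein and -0.08 under high fat feeding, with 3 positive and 4 negative on each diet. By the test, 0 of 7 passed on casein, where 1 had an unadjusted limma p under 0.05 beside 8.12% of all genes. Under high fat feeding 1 was higher and 1 was lower (28.6%), and 1 was higher for the mean of both (14.3%). The shares of all genes that passed were 5.92% and 7.52%.

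Derl3 encodes Derlin-3, a channel component through which misfolded proteins leave the ER, and it is a target of IRE1 and XBP1. Its single probe set stood in wild type pools at -0.06, -0.53 and -0.45 on casein and at -0.41, -0.41 and -0.46 under high fat feeding. Null pools gave 0.06, 0.12 and 0.15 on casein and 0.19, 0.19 and 0.56 under high fat feeding. All 6 null pools were above all 6 wild type pools, and wild type casein pool 1 was the wild type pool nearest to them. After the high fat diet Derl3 was 0.74 ± 0.13 higher in null pools, 1.67-fold (limma adjusted p = 0.0225). On casein the difference was 0.45 ± 0.13 (limma adjusted p = 0.542), and the mean of both was 0.60 ± 0.09, 1.51-fold (limma adjusted p = 0.0119). The difference between the diets in this genotype effect was 0.29 ± 0.18 (limma interaction, adjusted p = 0.803).

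Edem1 encodes a mannosidase-like protein that marks misfolded glycoproteins for degradation, and it too is a target of XBP1. On casein it stood at 0.02, 0.08 and -0.05 in wild type and at 0.11, -0.21 and -0.22 in null pools, which overlapped. Under high fat feeding the wild type pools were at 0.22, 0.13 and 0.58 and the null pools were all lower, at -0.15, -0.16 and -0.44. The difference there was -0.56 ± 0.14, a 1.47-fold lower value in null pools (limma adjusted p = 0.0424), and both probe sets were negative, at -0.48 and -0.63. On casein the difference was -0.12 ± 0.14 (limma adjusted p = 0.812). The interaction was -0.43 ± 0.19 (limma adjusted p = 0.789), so the genotype effect was not shown to differ between the diets.

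Sel1l, the scaffold of the ER ubiquitin ligase complex, was lower in all 6 null than in all 6 wild type pools, a pattern of 1.8% of all genes. Wild type values were 0.00, 0.14 and 0.08 on casein and 0.06, 0.08 and 0.42 under high fat feeding. Null values were -0.05, -0.08 and -0.19, and -0.02, -0.05 and -0.26. Its mean difference of -0.24 ± 0.07 did not pass (limma adjusted p = 0.0761), and its 5 probe sets ran from -0.68 to 0.06 under high fat feeding. Syvn1, the ubiquitin ligase HRD1 that Sel1l holds, was at -0.15 ± 0.05 for the mean of both diets (limma adjusted p = 0.101). Herpud1, Derl1 and Sec61b, a subunit of the translocon, lay between -0.09 and 0.07 for that mean.

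The ER stress element, through which ATF6 and XBP1 act together with NF-Y, was searched for in the promoters of the members and of all genes. It was taken as CCAAT, then any 9 bases, then CCACG, on either strand, in the 250 bases before the start of each gene in RefSeq, with coordinates of GRCm38.p6. Windows were held for 33 of the 38 members, all but Manf, Hyou1, Derl1, Atf6 and Hspa8. The element was present in 9 of the 33, 7 of the 12 chaperones (Calr, Canx, Creld2, Dnajc3, Hsp90b1, Hspa5 and Pdia6) and 2 of the 6 genes of the degradation arm (Derl3 and Syvn1). Over all promoters of that length, 37 of 32851 windows held it, which is 0.113%. The members were chosen as genes of this response, so this contrast says nothing on the genotype difference. The stretches below run 5′ to 3′ on the strand of the gene, with the element in capitals. Derl3, Calr and Creld2 are shown because they passed the test, Hspa5 as the gauge of the response, and Dnajc3 and Syvn1 because they carry the element and stood lower in null pools under high fat feeding.
Derl3 (chr10:75893222-75893280, plus strand): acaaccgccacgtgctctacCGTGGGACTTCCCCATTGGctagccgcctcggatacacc
Calr (chr8:84847055-84847113, minus strand): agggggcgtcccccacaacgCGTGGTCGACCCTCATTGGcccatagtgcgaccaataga
Creld2 (chr15:88819500-88819558, plus strand): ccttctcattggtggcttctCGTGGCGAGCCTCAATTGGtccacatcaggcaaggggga
Hspa5 (chr2:34772005-34772063, plus strand): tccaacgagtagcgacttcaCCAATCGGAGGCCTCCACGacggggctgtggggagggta
Dnajc3 (chr14:118937807-118937865, plus strand): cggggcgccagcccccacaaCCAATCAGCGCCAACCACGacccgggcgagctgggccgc
Syvn1 (chr19:6046512-6046570, plus strand): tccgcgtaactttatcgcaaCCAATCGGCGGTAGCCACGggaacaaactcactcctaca

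In Derl3, Calr and Creld2 the element lies on the opposite strand to the gene, and in Hspa5, Dnajc3 and Syvn1 on the same strand. Of the 9 genes with the element, 7 had a positive genotype difference under high fat feeding, with a median of 0.27, beside 13 of the 24 with a window that lacked it, with a median of 0.05. Dnajc3 and Syvn1 were the negative ones, and neither passed. No test was made of this split, which was added after seeing the data, and most genes with the element are chaperones. Of the other genes that passed, Dnajb9, Pdia4 and Edem1 held no match in this window. The element TGACGTGG (0.563% of windows), the element TGATGNAAT of ATF4 and C/EBP factors (0.816%) and a heat shock element of 3 alternating GAA and TTC units, each 2 bases from the next (0.466%), were found in 0 of the 33. With 2 such units in a row, a looser rule added after seeing the data, 12.8% of all windows matched, as did 4 of the 5 heat shock genes with a window (Hspa1a, Hspa1b, Hspb1 and Hsph1) and, in the other arms, Asns and Eif2ak3. A match is a description of letters in a window, and no match says only that these letters are not in it.

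Among the sensors, 0 of 4 passed the limma test in any of the 7 comparisons. At an unadjusted limma p under 0.05 there were 0 of 4 on casein, 3 under high fat feeding and 3 for the mean of both diets. The shares of all genes were 8.12%, 24.9% and 25.6%. The median of the 4 sensors was 0.01 on casein and -0.05 under high fat feeding. Xbp1, the factor that IRE1 activates by splicing, stood at 0.03, 0.00 and -0.01 in wild type pools on casein, against 0.34, 0.04 and 0.11 in null pools. In the high fat groups it was at -0.05, -0.02 and -0.07, and at -0.02, 0.00 and 0.07, where the groups overlapped. The mean difference of Xbp1 was 0.11 ± 0.06 (limma adjusted p = 0.235), and splicing is not measured by this value.

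The remaining sensors lay on both sides of 0. Atf6 was lower in all 3 null pools on either diet, with -0.05, 0.25 and 0.01 against -0.12, -0.07 and -0.08 on casein. After the high fat diet its values were 0.11, 0.09 and 0.25 in wild type against 0.00, -0.09 and -0.15 in null pools, and the mean difference was -0.19 ± 0.06 (limma adjusted p = 0.0784). Eif2ak3 was lower in the same way, at -0.13 ± 0.05 (limma adjusted p = 0.104), with wild type values of 0.15, -0.03 and 0.01, then 0.06, 0.10 and 0.07, against null values of -0.04, -0.09 and -0.06, then -0.02, -0.09 and -0.14. Ern1 lay higher, at 0.22 ± 0.08 (limma adjusted p = 0.129). Its wild type pools were at -0.02, -0.26 and 0.18 and then at -0.22, -0.21 and -0.19, and its null pools at 0.03, 0.02 and 0.25 and then at -0.06, 0.16 and 0.18. Of its 5 probe sets, 1 differed by 1.05 ± 0.33 under high fat feeding and the others by -0.02 to 0.31.

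**Figure D3:**
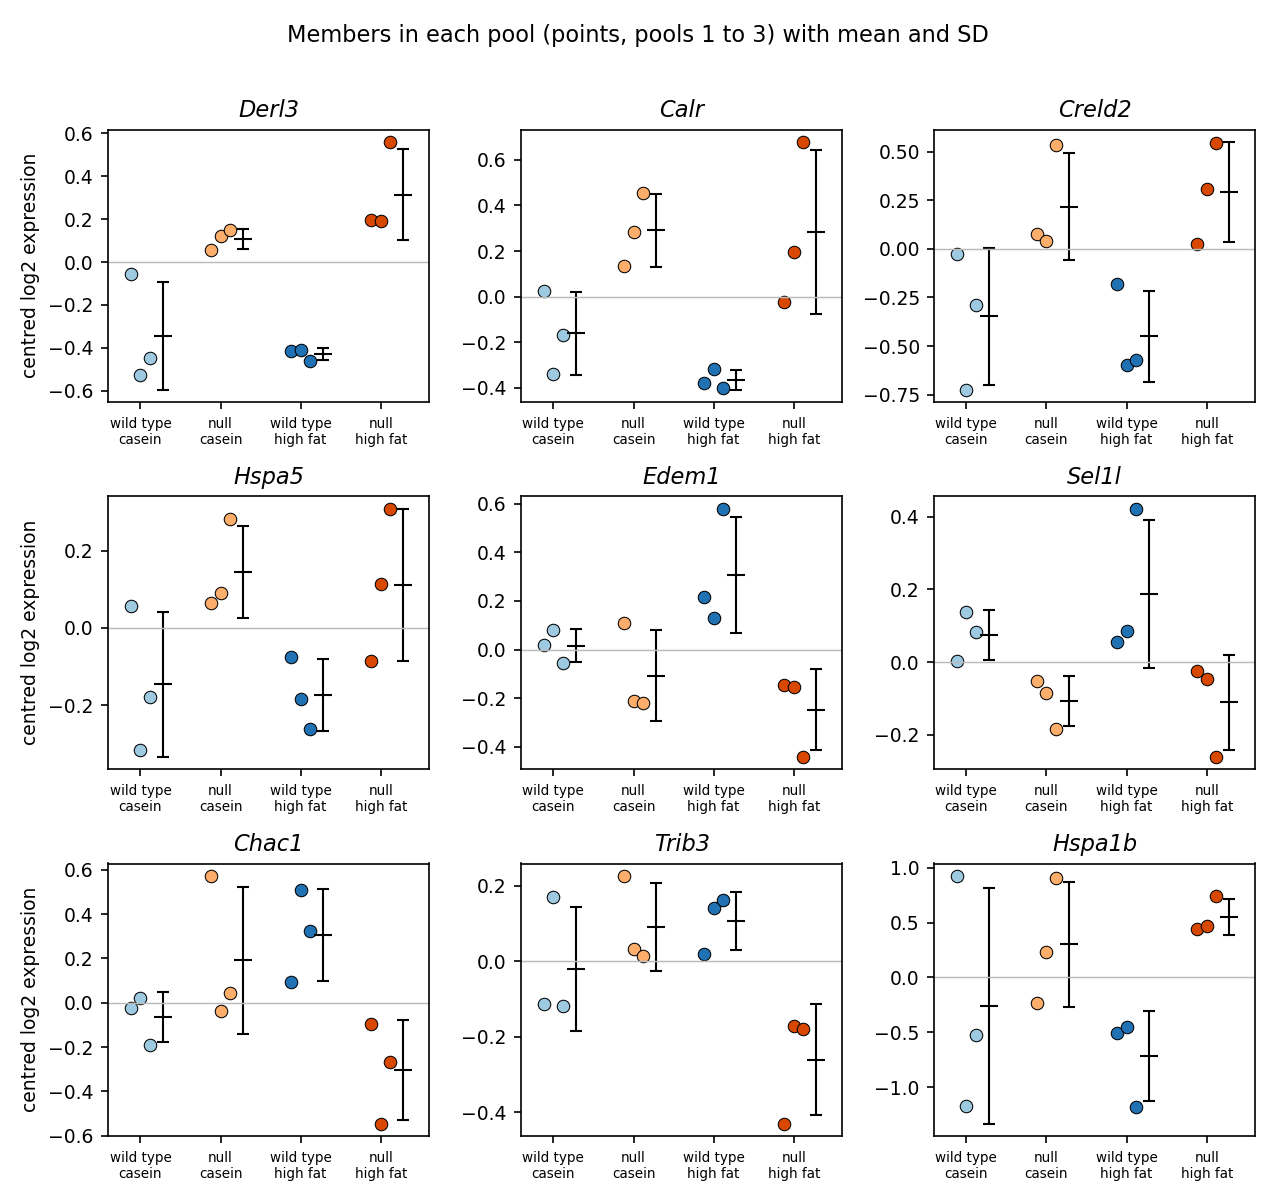
Values of 9 of the named members by pool (points, log2 relative to the median of the 12 pools) in the 4 groups, with the group mean as a line and its SD as a bar, n = 3 pools a group. Derl3 and Creld2 lie higher and Sel1l lies lower in all 6 null than in the wild type pools, and Hspa1b spreads from -1.19 to 0.93 within the wild type pools.

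Among the integrated stress genes, 0 of 7 passed the limma test in any comparison. With an unadjusted p under 0.05 there were 0 of 7 on casein, 3 under high fat feeding and 2 for the mean. The shares of all genes were 8.12%, 24.9% and 25.6%. Under high fat feeding 6 of 7 differences were negative, with a median of -0.25 beside -0.03 over all genes, and on casein the median was -0.03. Of all genes, 43.4% had a positive difference under high fat feeding. All 3 null pools lay below all 3 wild type pools for 3 of the 7 genes under high fat feeding (Ddit3, Trib3 and Chac1), beside 17.3% of all genes, and for 0 of 7 on casein, beside 6.57%.

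Atf4, the factor whose translation PERK favours, stood at 0.14, 0.00 and -0.10 in wild type and at -0.04, -0.05 and 0.02 in null pools on casein. In the high fat groups it was at 0.09, 0.04 and 0.00, and at -0.16, 0.00 and 0.18, and its mean difference was -0.03 ± 0.07 (limma adjusted p = 0.78). Its 3 probe sets did not move alike. A single probe set was lower in every null pool (-0.14 to -0.055) than in every wild type pool (0.055 to 0.27), and the genotypes overlapped for the others. Ddit3 encodes CHOP, a factor tied to cell death under lasting stress. It was at -0.13, 0.14 and -0.04 against -0.06, -0.18 and -0.23 on casein, and at 0.16, 0.18 and 0.28 against 0.08, 0.12 and -0.33 under high fat feeding, a difference there of -0.25 ± 0.12 (limma adjusted p = 0.227).

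Chac1 degrades glutathione and is a target of ATF4 and CHOP. On casein it stood at -0.02, 0.02 and -0.19 in wild type and at 0.57, -0.04 and 0.04 in null pools. After the high fat diet it stood at 0.09, 0.51 and 0.32 in wild type and at -0.10, -0.55 and -0.27 in null pools, so that the difference was 0.26 ± 0.17 on casein and -0.61 ± 0.17 under high fat feeding (limma adjusted p = 0.696 and 0.0627). Trib3, a pseudokinase target of the same factors, was at -0.11, 0.17 and -0.12 against 0.23, 0.03 and 0.01 on casein. Under high fat feeding it was at 0.02, 0.14 and 0.16 against -0.43, -0.17 and -0.18, a difference of -0.37 ± 0.11 (limma adjusted p = 0.0647). The interaction was -0.87 ± 0.25 for Chac1 and -0.48 ± 0.15 for Trib3, and neither passed (limma adjusted p = 0.789 for both).

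Atf3, a stress-induced repressor, was at -0.07, 0.31 and -0.38 in wild type and at -0.33, -0.33 and -0.48 in null pools on casein, and at 0.08, 0.41 and 0.64 and at 0.19, 0.06 and -0.06 under high fat feeding. Its mean genotype difference was -0.32 ± 0.12 (limma adjusted p = 0.134). Ppp1r15a (GADD34), which reverses the block on translation, was the 1 positive gene of the arm under high fat feeding at 0.41 ± 0.15 (limma adjusted p = 0.132), and Asns, which makes asparagine, differed by -0.02 ± 0.25 with null pools from -0.51 to 0.57.

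In the heat shock arm 0 of 6 passed the limma test in any comparison. An unadjusted p under 0.05 was found for 0 on casein, 2 under high fat feeding and 2 for the mean of both diets. The shares of all genes were 8.12%, 24.9% and 25.6%. The median difference of the arm was 0.12 on casein and 0.07 under high fat feeding. Hspa1a and Hspa1b encode the inducible HSP70 and are near-identical copies, so their probe sets may share signal and the copies cannot be kept apart with certainty. Hspa1b had the widest span of the members, from -1.19 to 0.93. It stood at 0.93, -1.17 and -0.53 in wild type and at -0.23, 0.23 and 0.91 in null pools on casein, and the groups overlapped. In the high fat groups it stood at -0.51, -0.45 and -1.19 in wild type and at 0.44, 0.47 and 0.74 in null pools, which did not overlap. The difference there was 1.27 ± 0.46, or 2.4-fold (limma adjusted p = 0.125), and its 3 probe sets gave 1.15, 1.29 and 1.36.

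Hspa1a was at 0.06, -0.63 and -0.07 in wild type and at -0.29, 0.02 and 0.29 in null pools on casein. After the high fat diet it was at -0.16, -0.02 and -0.35 against 0.30, 0.37 and 0.65, a difference of 0.62 ± 0.20 (limma adjusted p = 0.0823). The small heat shock protein gene Hspb1 (HSP25) was at 0.02, -0.07 and -0.28 in wild type and at -0.01, -0.12 and -0.20 in null pools on casein, and at 0.18, 0.56 and 0.22 and at 0.53, 0.03 and -0.06 under high fat feeding. Its genotype difference was 0.00 ± 0.16 on casein and -0.15 ± 0.16 under high fat feeding (limma adjusted p = 0.999 and 0.613). The constitutive HSP70 Hspa8, the co-chaperone Dnajb1 and the HSP110 gene Hsph1 lay between -0.02 and 0.13 for the mean of both diets.

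The diet comparisons asked what the high fat diet changed within each genotype, and 0 of the 38 members passed in either. The share of all genes that passed was 0% in either genotype. At an unadjusted limma p under 0.05 there were 3 members in wild type pools beside 7.61% of all genes, and 4 in null pools beside 4% of all genes. Averaged over the genotypes, 0 of 38 passed beside 0.0055% of all genes, and 3 members beside 5.23% of all genes had an unadjusted limma p under 0.05. Among members, Atf3 had the largest mean diet difference, 0.43 ± 0.12 (limma adjusted p = 0.788), with 0.42 ± 0.18 in wild type and 0.44 ± 0.18 in null pools. Hspb1 followed at 0.35 ± 0.11 (limma adjusted p = 0.852), and it was higher in all 3 wild type pools under high fat feeding than in all 3 on casein. Hspa5, with a mean diet difference of -0.03 ± 0.09, and Ddit3, with 0.16 ± 0.08, did not pass (limma adjusted p = 0.984 and 0.942). The interaction of diet and genotype passed for 0 of 38 members beside 0% of all genes, and 3 members (Chac1, Trib3 and Edem1) beside 6.12% of all genes had an unadjusted limma p under 0.05.

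Other genes of the same pathways were taken from lists of further members. Their counts stand beside 5.92% of all genes under high fat feeding and 7.52% for the mean of both diets. Of 20 further ER folding genes, 0 were higher and 1 was lower (5%) in null pools under high fat feeding. For the mean of both diets 3 were higher and 1 lower, which is 20%. Those higher were Ppib (cyclophilin B) at 0.43 ± 0.11, Txndc5 at 0.29 ± 0.08 and Sdf4 at 0.17 ± 0.04 (limma adjusted p = 0.0432, 0.0499 and 0.041), and the oxidase gene Ero1a was lower at -0.35 ± 0.05 (limma adjusted p = 0.011). The 22 further degradation and translocation genes had 1 lower in both comparisons, 4.55% in each. It was Ufd1, at -0.43 ± 0.08 under high fat feeding (limma adjusted p = 0.0234). None of 13 further sensor genes passed. With an unadjusted limma p under 0.05 there were 1 under high fat feeding and 2 for the mean, beside 24.9% and 25.6% of all genes.

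Of 27 further integrated stress genes, 1 was higher and 4 were lower under high fat feeding, which is 18.5% beside 5.92% of all genes. Slc7a5, the large neutral amino acid transporter, was 2.42 ± 0.47 higher in null pools (limma adjusted p = 0.0257). The serine synthesis genes Psat1 and Phgdh were at -0.83 ± 0.17 and -0.90 ± 0.21, Cebpg was at -0.43 ± 0.09, and Ero1a, which is on this list too, was at -0.32 ± 0.07 (limma adjusted p = 0.0281, 0.0368, 0.0316 and 0.0384). Of 36 further heat shock genes, 2 were higher under high fat feeding, Fkbp5 at 0.93 ± 0.18 and Dnajc7 at 0.47 ± 0.11, and 3 were lower, Hspb8 at -0.64 ± 0.10, Hspa12a at -0.66 ± 0.14 and Hspa14 at -0.37 ± 0.06 (limma adjusted p from 0.0171 to 0.0404). Of that list, 13.9% passed under high fat feeding. Fkbp5 is also known as a target of glucocorticoids. Immediate early genes, which respond to handling of tissue, had 2 of 22 (9.09%) lower under high fat feeding. They were Dusp1 at -0.84 ± 0.18 and Klf6 at -0.52 ± 0.11 (limma adjusted p = 0.0316 and 0.0281).

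Markers of other tissues differed between the same pools. Counts of them that passed stand beside 5.92% of all genes under high fat feeding and 7.52% for the mean of both diets. Of 21 markers of ovary, oviduct and uterus, 8 (38.1%) were higher in null pools under high fat feeding. For the mean of both diets 9 (42.9%) of these markers were higher, and 0 were lower in either comparison. Their median over the pools was between -0.80 and -0.69 in wild type and between 0.08 and 0.75 in null pools under high fat feeding. On casein it was 0.04, -0.81 and -0.38 in wild type against -0.02, 0.09 and 0.18 in null pools. Single markers differed by far more than these medians. Under high fat feeding the differences ran from -0.20 for Hoxa13 to 8.26 for Hsd3b1, with 19 positive and 2 negative. All 3 null pools lay above all 3 wild type pools for 16 of the 21 there, beside 14.9% of all genes. The median of 17 markers of glandular epithelium, which secretes much protein, was 1.55, -0.87 and -0.19 in wild type against -0.47, 0.66 and 1.33 in null pools on casein. Under high fat feeding it was -0.46, -0.91 and -0.92 against 0.18, 0.82 and 1.34, and 1 of the 17 (5.88%) passed as higher. The median of the 14 ER chaperones in the same order was 0.04, -0.24 and -0.14, then 0.07, 0.07 and 0.24, and under high fat feeding -0.09, -0.19 and -0.19, then -0.03, 0.19 and 0.20.

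The wild type pool with the highest medians of both marker lists, casein pool 1, also had the highest chaperone median of the wild type pools. Null casein pool 1 had the lowest gland median of the null pools, -0.47. Its chaperone median was 0.07, beside 0.04 in wild type casein pool 1, where the gland median was 1.55. Null casein pool 1 also held the lowest null value of Derl3, 0.06. For Hsp90b1, Canx, Pdia3 and Pdia6 it held the highest value of the 12 pools (0.38, 0.31, 0.27 and 0.24). Of 10 plasma cell markers, 1 was higher and 2 were lower under high fat feeding. For the mean of both diets 2 were higher and 1 lower. Each share was 30%, beside 5.92% and 7.52% of all genes. The median of these markers stayed between -0.18 and 0.30 in the 12 pools. Igha, the heavy chain of IgA, was 2.01 ± 0.44 higher in null pools under high fat feeding and 1.54 ± 0.31 higher for the mean (limma adjusted p = 0.0326 and 0.0241). Sdc1, which plasma cells and epithelia express, was 0.68 ± 0.18 higher for the mean (limma adjusted p = 0.0467), with -0.55, -0.48 and -0.29 in wild type against -0.03, 0.44 and 0.80 in null pools under high fat feeding. Ighm was lower in both comparisons, at -0.38 ± 0.09 and -0.44 ± 0.06 (limma adjusted p = 0.0387 and 0.0103), and Tnfrsf17 was lower under high fat feeding, at -0.73 ± 0.15 (limma adjusted p = 0.0278). These genes are named after their values were seen. Of 14 pancreas markers 1 (7.14%) was lower, with medians from -0.09 to 0.07. Of 17 adipocyte markers, 6 (35.3%) were lower in null pools under high fat feeding and 0 were higher. The part of any of these tissues or cells in the differences of the chaperones, Derl3, Edem1 and the HSP70 genes was not tested.

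**Figure D4:**
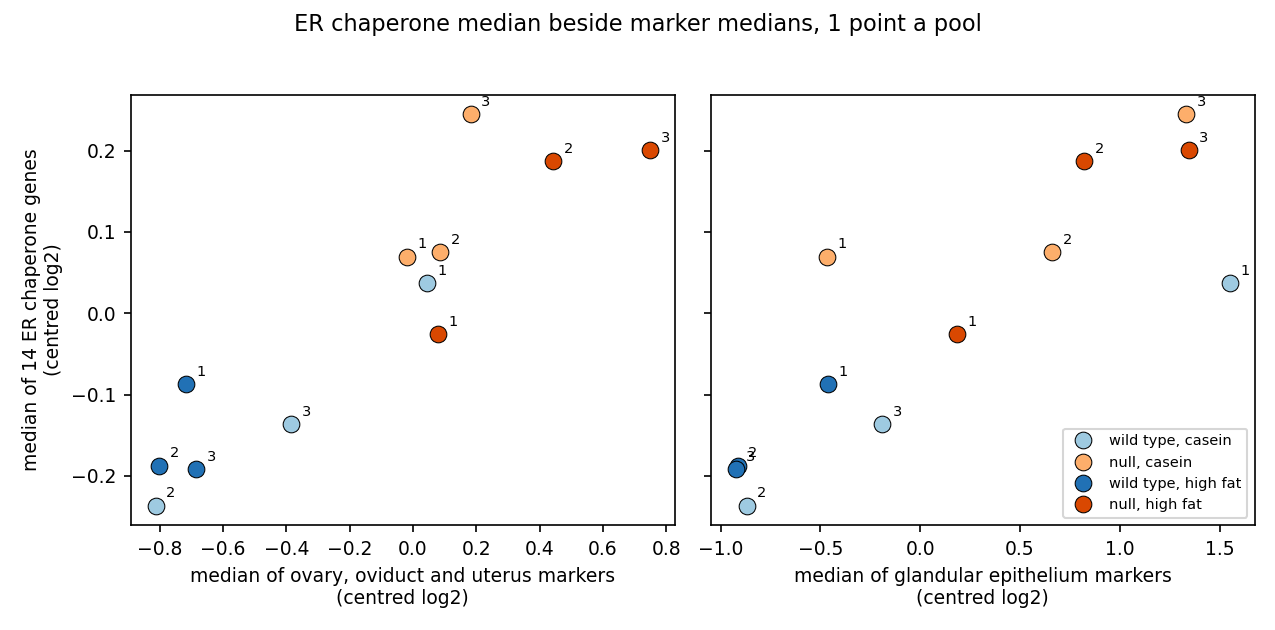
Median of the 14 ER chaperones (y axis, log2 relative to each gene's median) against the median of the ovary, oviduct and uterus markers and of the glandular epithelium markers (x axes, log2) in the 12 pools, coloured by group. Wild type high fat pools lie at the lower left of both panels and null high fat pools 2 and 3 at the upper right, with wild type casein pool 1 beside the null pools for its markers.

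The calls rested on few pools. Derl3 for the mean of both diets passed in each of the 22 alternatives run, including the omission of each pool in turn (limma adjusted p from 0.0014 to 0.0442). In the high fat groups Derl3 lost its call without wild type high fat pool 1, 2 or 3 (limma adjusted p = 0.0527, 0.0534 and 0.0746), without null high fat pool 2 or 3 (0.0737 and 0.0767), and without the pools rich in other tissue (0.0533), while its difference stayed between 0.62 and 0.81. Calr under high fat feeding lost it without wild type high fat pool 1, 2 or 3 (0.109, 0.0949 and 0.127), null high fat pool 2 or 3 (0.115 and 0.138), null casein pool 2 or 3 (0.0705 and 0.0549) or wild type casein pool 3 (0.055). Edem1 lost it without wild type high fat pool 1, 2 or 3 (0.0805, 0.0598 and 0.122), null high fat pool 2 or 3 (0.105 and 0.163) or null casein pool 2 or 3 (0.0636 and 0.0531). Without the pools rich in other tissue, Calr stood at 0.83 and Edem1 at -0.70 (0.0606 and 0.0679), and in a fit of only the groups compared both lost the call (0.0756 and 0.0706). Edem1 also lost it with its probe set of largest SD (0.0604).

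For the mean of both diets, Calr lost its call without wild type casein pool 2 (limma adjusted p = 0.0645), null casein pool 2 or 3 (0.0701 and 0.0657), wild type high fat pool 1 or 3 (0.0539 and 0.057) or null high fat pool 2 (0.0584). Creld2 lost its call without wild type casein pool 2 or 3 (0.0676 and 0.0518), null casein pool 2 or 3 (0.0677 and 0.072), wild type high fat pool 2 or 3 (0.0658 and 0.0695) or null high fat pool 2 or 3 (0.0739 and 0.0765). Dnajb9 and Pdia4 lost theirs without any one of 10 pools (0.0512 to 0.0994 and 0.052 to 0.11) and kept them without wild type casein pool 1 (0.0323 and 0.0416) and null casein pool 1 (0.0231 and 0.0367). Without the pools rich in muscle or liver markers, Creld2, Dnajb9 and Pdia4 lost theirs too (0.0727, 0.101 and 0.131). Pdia4 also lost its call after quantile normalization (0.0648) and with the filter on SD (0.0554). Over all alternatives run the limma adjusted p ranged from 0.000888 to 0.0767 for Derl3, 0.00328 to 0.138 for Calr and 0.00774 to 0.163 for Edem1 under high fat feeding. For the mean of both diets it ranged from 0.00346 to 0.0701 for Calr, 0.00579 to 0.0765 for Creld2, 0.0189 to 0.101 for Dnajb9 and 0.0189 to 0.131 for Pdia4. The direction of each of these 8 calls was kept in every alternative run.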

How the data were processed

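The submitters' processing notes name GCOS and RMA without versions. The deposited values are taken as log2, the scale of RMA, and the authors had centred each probe set on its median over the 12 arrays (0 of 45101 depart from 0), so levels and signal over background are lost and no filter on dim probe sets was possible. Probe sets with 1 gene (34958) were used, and those with several (932) or none (9211) were left out. Probe sets of a gene were averaged. Current symbols came from RefSeq (GRCm38.p6), matched by gene identifier for 34754 probe sets. limma 3.58.1 in R 4.3.3 fitted 4 group means to 12 pools in 1 fit (8 residual and 2.5 prior degrees of freedom), and two-sided p-values were adjusted over 18194 genes. The 7 comparisons were diet in each genotype, genotype on each diet, the interaction and both averages. The fit was tested on simulated data. The number of arrays limits the precision, and no array carries a date or batch.

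The members and lists were chosen with earlier results of these data known. Members are given in full where they passed in any comparison (at most 5 an arm), topped up to 3 an arm by smallest unadjusted p, with Hspa5, Xbp1, Ddit3, Atf4, Hspa1a and Hspa1b added. Up to 4 genes of each further list that passed are named, and any further gene of a list was named after its values were seen. Alternatives were the treatment of probe sets, renormalization, array weights, robust spread, a filter on SD, the pool number as a block, only the groups compared, and pools left out.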

Additional observations from a re-analysis of the deposited data

How the results depend on the processing

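Of 755 recomputed arm medians, 698 kept their sign, and 18 of the 35 medians kept it in every alternative, among them the ER chaperones in all genotype comparisons. The sensor median on casein changed sign in 7 of 22 alternatives, between -0.03 and 0.06. The heat shock median of the interaction was 0.27 with the probe set of largest SD. On the high fat diet the genotype comparison called 3 members, against 1 with the replicate block, 21 with array weights and 5 with the SD filter. It called 0 without the pools rich in muscle or liver markers, named the rich pools below. Its ER chaperones numbered 2 with the probe set of largest SD, 0 without _x_at and _s_at probe sets, 0 with the block, 9 with weights, 2 with the SD filter, 0 without the rich pools and 0 with only the groups compared. Degradation genes numbered 1, 1, 4, 0 and 1 with the largest SD, the block, weights, without the rich pools and with only the groups compared. Weights called 3 sensors, 3 integrated stress and 2 heat shock genes, the SD filter 1 integrated stress gene, and only the groups compared 2 heat shock genes. For the mean of both diets, 5 members became 10 with the largest SD, 3 with the block, 21 with weights and 2 without the rich pools, of which 7, 2, 11 and 1 were chaperones. Over all genes, the 1368 calls for that mean became 1640, 829, 4009 and 548 in the same settings. Degradation genes were 2 with the median of probe sets, with the largest SD and with quantile normalization, and 4 with weights. Weights called 3 sensors, 1 integrated stress gene and 2 heat shock genes, and the largest SD 1 heat shock gene. In null pools, weights called 4 members for diet, by arm 1, 2 and 1. Over all genes, weights called 942 for diet in null pools, against 0 in the fit as reported, so these calls were not particular to the members. Leaving out 1 pool gave 0 to 9 members on the high fat diet (chaperones 0 to 5, degradation 0 to 2, integrated stress 0 to 2, heat shock 0 to 1) and 1 to 12 for the mean (chaperones 0 to 8, degradation 1 to 2, sensors 0 to 1, heat shock 0 to 2). The cause of these changes was not tested. Pools with the same number did not deviate together (18 pairs, r from -0.615 to 0.59, 3 over 0.1), so the numbers were not taken as pairs. With the replicate block, limma adjusted p was 0.06 for Calr and 0.0694 for Edem1 on the high fat diet, and 0.0675 for Dnajb9 and 0.059 for Pdia4 for the mean. Over all genes, the 1077 calls on the high fat diet became 542 with the block, 5120 with weights, 655 with quantile normalization and 440 without the rich pools, and 0 without null high fat pool 2 or 3. Arm medians were not computed under the SD filter, which removes members, and the fit of only the groups compared was not run for the interaction and the averages. With 3 pools against 3, an exact permutation test of a single gene cannot go below p = 0.1.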
